A study of Mus musculus with 2 samples.

Results

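The growth factor genes studied here are the epidermal growth factor receptor ligand Areg, the bone morphogenetic protein Bmp2, the vascular endothelial growth factor Vegfa and the transforming growth factor Tgfb1, in innate lymphoid cells (ILCs) of the mouse gut. They were chosen by name, as 4 of the 17238 genes of the deposited count table, and all 4 were detected in each library. Cells had been sorted as IL7ra+ ILCs out of small intestine or colon tissue of C57BL/6 mice aged 8 weeks, which the sample titles call fed, and were sequenced with the 10x Chromium 3′ v2 kit. Each tissue gave 1 library from a pool of 8 mice, with no genetic change or treatment named for either, so that single mice cannot be told apart. With 1 library per tissue there is no replicate check and no test, and the 95% intervals below cover counting error only.

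ILCs are tissue lymphocytes without rearranged antigen receptors, and besides cytokines they secrete factors that act on the epithelium, vessels and stroma around them. Amphiregulin, the product of Areg, is made as a membrane protein, is shed by proteases such as ADAM17 and binds the EGF receptor on epithelial cells; in mice it is known as a repair factor made by group 2 ILCs (ILC2s). BMP2 signals through SMAD proteins and in the gut takes part in the BMP signal that limits stem cell division in crypts, VEGFA drives the growth of blood vessels, and TGF-beta1 is secreted in a latent form that integrins and other activators release and is a regulator of T cells and of IgA switching.

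The table held 5490 small intestine cells and 7549 colon cells, with 15080081 and 22332691 unique molecular identifiers (UMIs, each standing for 1 captured transcript). The median cell had 2579 UMIs in the small intestine, against 2600 UMIs in the colon. Cells were grouped by whether they had at least 1 UMI of Gata3 (1643 small intestine and 4218 colon cells), Ccr6 (541 and 357), Ncr1 (1605 and 665), Klrd1 (172 and 482) or Cd3e (429 and 1384), and 1882 and 1615 cells had none of the 5. A cell could be in several groups, and the share of a group with none of the other 4 markers ran from 18.02% (Klrd1+) to 69.7% (Ccr6+) in the small intestine and from 24.9% (Klrd1+) to 82.4% (Gata3+) in the colon. The libraries shared 60 cell barcodes, against 56.2 expected by chance.

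The groups were set against marker lists. Ccr6+ cells had the highest summed level of 5 group 3 ILC (ILC3) markers, 9929 CPM (UMIs per 1000000 UMIs of the group) in the small intestine, against 8679 CPM in the colon, and Klrd1+ cells had the highest sum of ILC1 and NK cell markers, 3802 and 3019 CPM without Klrd1 itself. Cd3e+ cells had the highest sum of T cell markers. The sum of 9 ILC2 markers was only modestly higher in Gata3+ cells than in Ccr6+ or marker-free cells. Without Gata3 itself it was 2215 CPM in small intestine and 2696 CPM in colon Gata3+ cells. Ccr6+ cells had 1965 and 2196 CPM with Gata3 counted, and marker-free cells 1765 and 2131 CPM. In Gata3+ cells of the small intestine the ILC2 gene Klrg1 stood at 293 CPM, against 130 CPM in all cells of that library. A UMI of Il1rl1, the IL-33 receptor of ILC2s, was seen in 5.66% of small intestine Gata3+ cells, against 27.2% of colon Gata3+ cells. Cells with none of the 5 markers held the plasma cell list at 19389 CPM in the small intestine, against 11478 CPM in the colon, all 4 of its genes detected. Only 13 small intestine and 10 colon cells of the whole libraries had more than 10 UMIs of Igkc, Igha and Jchain together. Myeloid genes summed to at most 2.24 CPM and stromal genes to at most 0.22 CPM over all cells of a library. The 4 endothelial genes summed to 59.6 CPM in the small intestine, against 30.2 CPM in the colon. Of these, Cdh5 and Kdr had 0 UMIs in the small intestine and 11 and 10 UMIs in the colon. The small intestine sum thus came from Pecam1 and Cldn5.

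Areg (ENSMUSG00000029378) lies on the plus strand at chr5:91139599-91148432 of mm10 (GENCODE vM21), has 6 exons and sits between the EGF family genes Ereg and Btc. Bmp2 (ENSMUSG00000027358) lies at chr2:133552159-133562885 on the plus strand and Tgfb1 (ENSMUSG00000002603) at chr7:25687002-25705077 on the plus strand, while Vegfa (ENSMUSG00000023951) lies at chr17:46016993-46032369 on the minus strand with 13 annotated transcripts, which a count at the 3′ end does not separate. The sequences from 250 bases before the start to the base before it, from RefSeq on GRCm38.p6 (the mm10 build), are shown for Areg, which peaked in Gata3+ cells, for Vegfa, which peaked in Ccr6+ cells, and for Tgfb1, which was even over the groups. Capitals mark the motifs found. Those searched, on both strands, were the cAMP response element with the letters TGACGTCA, the TATA box spelled as TATAAA, the GC box spelled as GGGCGG, and the core of the hypoxia response element, which reads ACGTG. No match overlapped another in these windows.
Areg, chr5:91139349-91139598, plus strand: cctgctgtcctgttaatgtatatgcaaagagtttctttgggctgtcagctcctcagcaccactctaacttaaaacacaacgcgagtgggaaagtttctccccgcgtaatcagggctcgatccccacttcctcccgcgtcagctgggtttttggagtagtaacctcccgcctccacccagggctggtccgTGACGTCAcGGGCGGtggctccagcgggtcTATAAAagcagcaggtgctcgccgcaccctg
Vegfa, chr17:46032378-46032627, minus strand: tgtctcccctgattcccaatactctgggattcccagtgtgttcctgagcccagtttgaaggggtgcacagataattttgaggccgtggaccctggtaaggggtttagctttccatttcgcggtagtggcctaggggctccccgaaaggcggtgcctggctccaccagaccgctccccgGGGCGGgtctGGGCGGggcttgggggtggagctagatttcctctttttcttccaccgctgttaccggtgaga
Tgfb1, chr7:25686752-25687001, plus strand: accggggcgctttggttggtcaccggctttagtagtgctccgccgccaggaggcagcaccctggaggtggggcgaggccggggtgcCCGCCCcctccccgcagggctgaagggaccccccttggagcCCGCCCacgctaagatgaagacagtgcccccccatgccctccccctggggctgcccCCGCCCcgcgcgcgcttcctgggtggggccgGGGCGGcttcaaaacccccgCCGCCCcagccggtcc

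The Areg window held TGACGTCA 61 bases before the start, GGGCGG 52 bases before it and TATAAA 31 bases before it. The Vegfa window shown held 2 GC boxes and the Tgfb1 window 5, and neither held TGACGTCA, TATAAA or ACGTG. RefSeq lists a second Vegfa start, whose window (chr17:46025164-46025413, minus strand) held ACGTG 211 bases before the start, on the opposite strand, and 1 GC box. Over 32817 promoter windows of the same length, 1.55% held TGACGTCA, 12.4% TATAAA, 32.7% GGGCGG and 16.6% ACGTG. GC content was 57.2% for Areg, 59.2% for Vegfa and 75.2% for Tgfb1. These are matches of letters in 250 bases and show no binding.

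Areg was highest in Gata3+ cells of both tissues, at nearly the same level. Gata3+ cells had 426 CPM of Areg in the small intestine (interval 408 to 445, 2160 UMIs), against 441 CPM in the colon (interval 430 to 453, 5963 UMIs). Against Gata3- cells of the same library Areg was 3.35-fold higher for the small intestine (interval 3.12 to 3.59) and 2.83-fold higher for the colon (interval 2.67 to 3.003). The small intestine to colon ratio in Gata3+ cells was 0.966 (interval 0.919 to 1.01), so no tissue difference was resolved there. With every cell thinned to 1000 UMIs before markers and genes were counted, which gives each cell the same weight, the log2 ratio was -0.27. Without the 1 small intestine cell of most Areg UMIs, the ratio was 0.922 (interval 0.877 to 0.970).

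Outside Gata3+ cells the Areg level depended on group and tissue. Ncr1+ cells, which hold NKp46+ ILC3s and ILC1s, had 189 CPM of Areg in the small intestine, against 157 CPM in the colon, 1.21-fold higher in the small intestine (interval 1.07 to 1.37). A single small intestine cell held 100 of the 898 Areg UMIs there, and without it the ratio was 1.07 (interval 0.945 to 1.22); with the 4 other markers absent the values were 170 CPM in the small intestine, against 174 CPM in the colon, with overlapping intervals. Ccr6+ cells had 49.6 CPM in the small intestine, the lowest of the 5 groups, and 129 CPM in the colon, a ratio of 0.384 (interval 0.288 to 0.506). This difference depended on how cells were counted: with Ccr6 as the sole marker the levels were 40.7 CPM in the small intestine, against 61.3 CPM in the colon. The log2 ratio of -1.38 became -0.45 with at least 2 UMIs of Ccr6 and -0.07 with Ccr6 called anew after thinning. For Ccr6+ cells called at full depth, the thinned mean was 0.0573 Areg UMIs in the small intestine, against 0.115 UMIs in the colon. Klrd1+ cells had 106 and 148 CPM (small intestine and colon), and Cd3e+ cells 94.5 and 111 CPM. The Klrd1+ ratio of 0.721 (interval 0.520 to 0.982) turned to the small intestine side with at least 2 UMIs of Klrd1 (log2 0.88). Without 1 small intestine cell of 15 Areg UMIs it was 0.511 (interval 0.347 to 0.731), and without the richest colon cell 0.774 (interval 0.557 to 1.06). The Cd3e+ ratio, within counting error of 1, was 0.738 without 1 small intestine cell (interval 0.585 to 0.921) and had a log2 value of -1.31 after thinning. In the order of Areg levels, the intervals of Klrd1+ and Cd3e+ cells overlapped for the small intestine, while each colon group below Gata3+ overlapped its neighbour. Cells with none of the markers had 130 CPM in the small intestine, against 240 CPM in the colon. Over all cells the level was 228 CPM in the small intestine, against 329 CPM in the colon, a ratio of 0.693 (interval 0.666 to 0.722), beside Gata3+ shares of 29.9% and 55.9% of the cells.

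**Figure D1:**
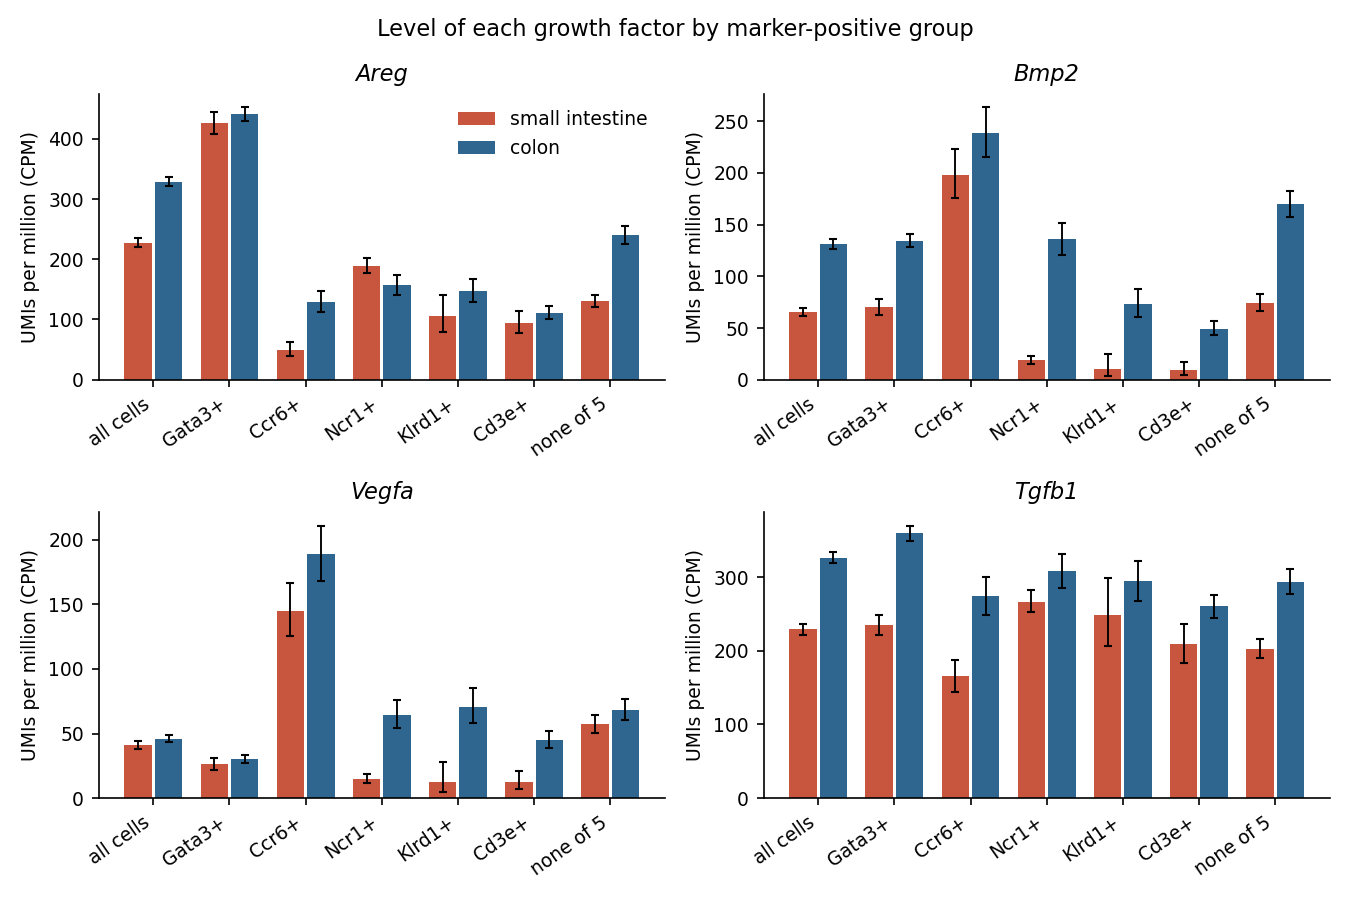
Level of each gene as CPM (y axis) in all cells, in cells with at least 1 UMI of each marker and in cells with none of the 5, with small intestine bars left of colon bars and exact Poisson 95% intervals. Areg peaks in Gata3+ cells (426 and 441 CPM), Bmp2 and Vegfa in Ccr6+ cells, and Tgfb1 is spread over all groups; the y axes differ between panels.

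Areg was concentrated in few cells. At an equal depth of 1000 UMIs per cell, 18.5% of small intestine Gata3+ cells and 23.4% of colon Gata3+ cells had a UMI of Areg (32.0% and 39.4% without thinning), against 1.35% and 2.998% that free RNA alone would give. The 10% of Gata3+ cells richest in Areg held 73.6% of its UMIs in the small intestine, against 62.7% in the colon, and the highest cell had 100 UMIs in the small intestine, against 34 UMIs in the colon. The variance of Areg over its mean after thinning was 4.04 in the small intestine, against 2.89 in the colon, where counting alone gives about 1.

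Within Gata3+ cells, Areg went with the genes of ILC2s. Cells with a UMI of Il5, a signature cytokine of ILC2s, had 1028 CPM of Areg, against 354 CPM in Gata3+ cells without it, in the small intestine, and 677 against 351 CPM in the colon. For Il13 the values were 1183 against 366 CPM in the small intestine and 606 against 422 CPM in the colon, and for Il1rl1 869 against 393 CPM and 564 against 386 CPM. In each of these comparisons the interval of the ratio excluded 1. Gata3+ cells with a UMI of the heat shock gene Hspa1a, a sign of stress in handling, had 302 CPM of Areg in the colon, against 462 CPM without it; in the small intestine the values were 424 and 426 CPM, and the part of handling in the levels was not tested.

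**Figure D2:**
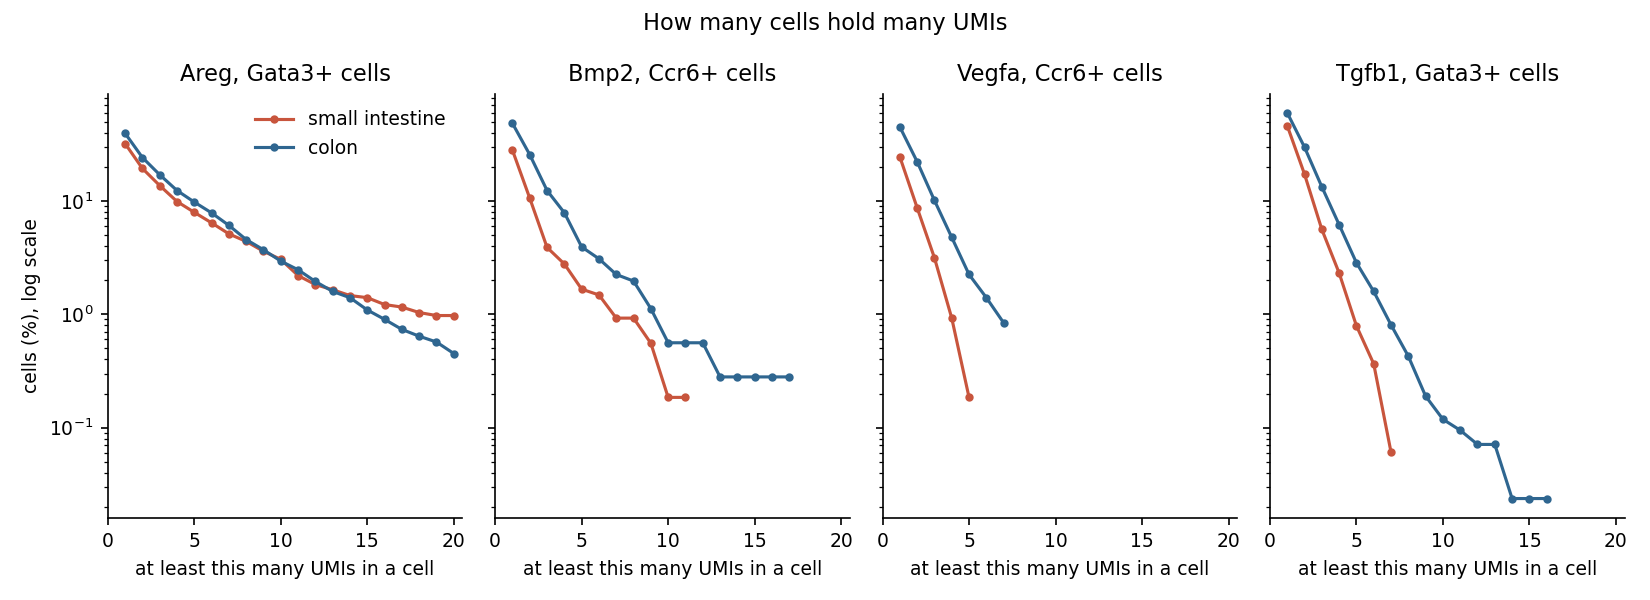
Share of cells (y axis, percent, log scale) with at least a given number of UMIs of a gene (x axis) in the group with its highest or most sampled signal, small intestine and colon as separate lines, not corrected for depth. Areg in Gata3+ cells has the longest tail, and the x axis ends at 20 UMIs although the highest cell has 100; Vegfa reaches 5 UMIs in the small intestine, against 7 UMIs in the colon.

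Bmp2 was highest in Ccr6+ cells, which hold the lymphoid tissue inducer-like ILC3s, and was higher in the colon in every group. Ccr6+ cells had 198 CPM of Bmp2 in the small intestine (interval 176 to 223, 276 UMIs), against 239 CPM in the colon (interval 216 to 264, 390 UMIs). That was 3.84-fold (interval 3.33 to 4.42) and 1.95-fold (interval 1.75 to 2.17) the level of Ccr6- cells of the same library. The colon level was 1.20-fold higher (interval 1.03 to 1.41), although without 1 colon cell of 17 Bmp2 UMIs the interval of the ratio included 1. With Ccr6 called anew after thinning, the log2 ratio was -1.01 in place of -0.27. For Ccr6+ cells called at full depth, the thinned mean was 0.220 Bmp2 UMIs in the small intestine, against 0.258 UMIs in the colon.

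In the other groups the colon level of Bmp2 stood further above the small intestine level when all UMIs were counted. Ncr1+ cells had 19.0 CPM in the small intestine (90 UMIs), against 136 CPM in the colon (303 UMIs), 7.16-fold higher in the colon (interval 5.64 to 9.16). Gata3+ cells had 70.1 CPM in the small intestine, against 135 CPM in the colon, 1.92-fold higher in the colon (interval 1.71 to 2.16). Klrd1+ cells had 10.6 CPM in the small intestine, from 5 UMIs, against 73.2 CPM in the colon, and Cd3e+ cells had 9.45 CPM from 11 UMIs and 49.3 CPM. All 3 low small intestine values lay above the 3.80 CPM that free RNA would give there, although the Klrd1+ interval (3.46 to 24.8) includes it. In the order of levels, the small intestine Ncr1+, Klrd1+ and Cd3e+ cells overlapped their neighbours, and in the colon Ncr1+ and Gata3+ cells did. Over all cells Bmp2 stood at 65.2 CPM in the small intestine, against 131 CPM in the colon, 2.01-fold higher in the colon (interval 1.87 to 2.16).

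Against the other cells of its library, Bmp2 was low in Ncr1+ cells of the small intestine and not in those of the colon. In the small intestine Ncr1+ cells had 0.220 times the level of Ncr1- cells (interval 0.175 to 0.273), whereas in the colon the ratio was 1.041 (interval 0.921 to 1.17). Within colon Ncr1+ cells, those with a UMI of the ILC3 cytokine Il22 had 187 CPM of Bmp2, against 70.3 CPM without it. Cells with a UMI of Tbx21, the transcription factor of ILC1s, had 42.0 CPM, against 155 CPM without it. In the small intestine the Ccr6+ cells with a UMI of Cd4, a gene of lymphoid tissue inducer cells in mice, had 305 CPM, against 181 CPM without it, while in the colon the values were 242 and 236 CPM, with overlapping intervals. In Ccr6+ cells with Cd4 the small intestine to colon ratio was 1.26 (interval 0.923 to 1.70). Small intestine Ccr6+ cells with a UMI of Hspa1a had 397 CPM of Bmp2, against 187 CPM without it, from 29 cells with it, and its part was not tested.

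**Figure D3:**
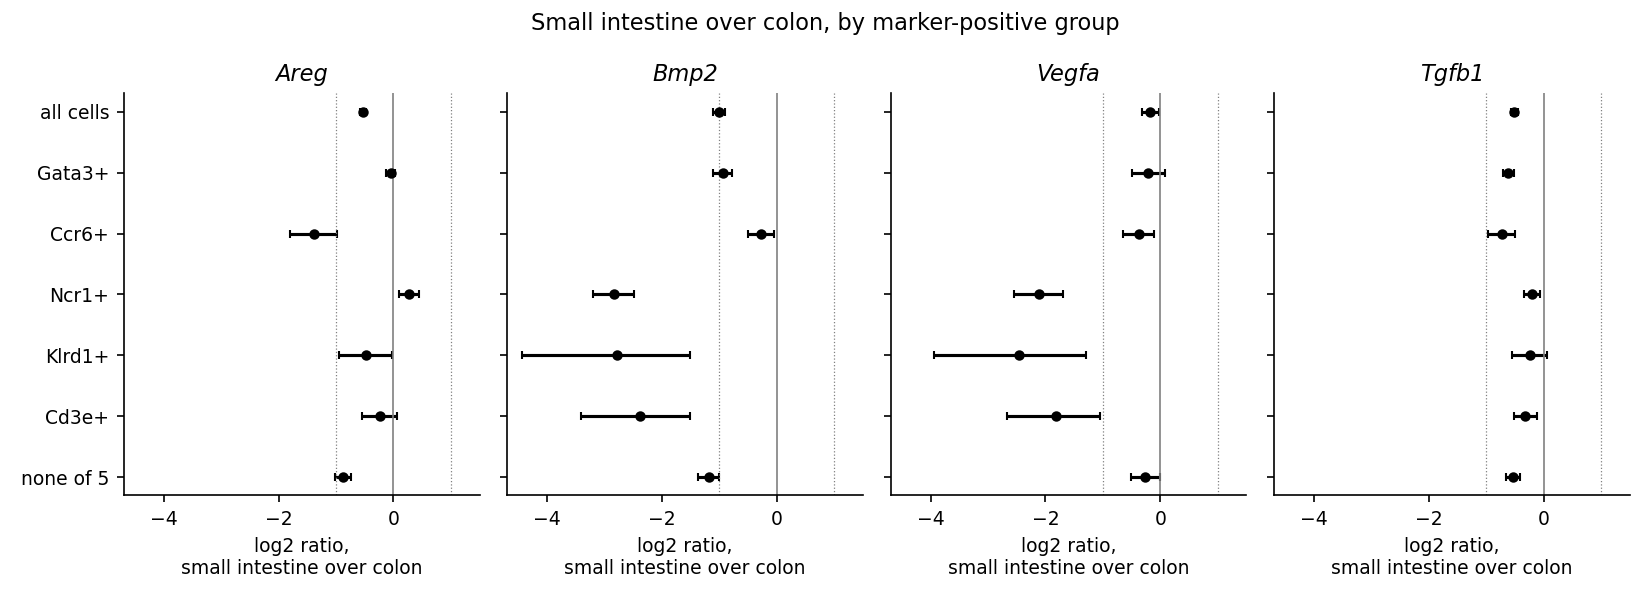
Log2 ratio of the level in the small intestine over the level in the colon (x axis) for each gene and group (y axis), with exact 95% intervals for counting error; the solid line marks equal levels and the dotted lines 2-fold. Bmp2 and Vegfa lie farthest to the colon side in Ncr1+, Klrd1+ and Cd3e+ cells, and Areg in Ncr1+ cells is the only value above 0 with an interval that excludes it, which includes 0 once 1 small intestine cell is left out.

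Vegfa was highest in Ccr6+ cells of both tissues. Ccr6+ cells had 145 CPM of Vegfa in the small intestine (interval 126 to 167, 202 UMIs), against 189 CPM in the colon (interval 168 to 211, 308 UMIs). These were 4.78-fold (interval 4.02 to 5.67) and 5.41-fold (interval 4.72 to 6.19) the levels of Ccr6- cells. Cells with Ccr6 alone had 161 CPM in the small intestine, against 219 CPM in the colon. Against cells with none of the markers their log2 ratios were smaller, 1.49 for small intestine cells (2.26 for all Ccr6+ cells) and 1.68 for colon cells (2.43). The comparison cells differed: marker-free cells had 57.2 and 68.3 CPM (small intestine and colon), and Ccr6- cells 30.3 and 34.9 CPM. Thinning gave a log2 ratio of 1.62 for Ccr6+ over Ccr6- cells in the small intestine. At 1000 UMIs per cell, 14.6% of small intestine and 16.8% of colon Ccr6+ cells had a UMI of Vegfa (24.4% and 44.8% without thinning, at median depths of 2366 and 3443 UMIs), and free RNA would give 0.17% and 0.23%.

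Vegfa was lower in Gata3+ than in Gata3- cells of both tissues. Among the 5 groups, Gata3+ cells stood below only Ccr6+ cells in the small intestine and were the lowest in the colon. They had 26.4 CPM in the small intestine, against 30.5 CPM in the colon, with a ratio whose interval includes 1. Its log2 value of -0.21 was 1.11 after thinning and -1.06 with at least 2 UMIs of Gata3, so no order is read from it. The NK and T cell marker groups differed between the tissues. Ncr1+ cells had 15.0 CPM in the small intestine (71 UMIs), against 64.6 CPM in the colon (144 UMIs), 4.31-fold higher in the colon (interval 3.22 to 5.82). Klrd1+ cells had 12.8 CPM from 6 UMIs and 70.7 CPM, and Cd3e+ cells 12.9 CPM from 15 UMIs and 45.3 CPM (log2 ratio -1.81, and -0.61 after thinning). The intervals of these 3 groups overlapped in the small intestine, and those of Klrd1+ and Ncr1+ cells in the colon. Relative to marker-negative cells of the same library, Ncr1+ cells were at 0.283 times (interval 0.218 to 0.363) in the small intestine and 1.46 times (interval 1.22 to 1.75) in the colon. The colon direction did not hold for cells with Ncr1 alone against cells with none of the markers (log2 -0.28 in place of 0.55).

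Over all cells Vegfa stood at 40.9 CPM in the small intestine, against 46.1 CPM in the colon, a ratio of 0.887 (interval 0.802 to 0.981). That order depends on how cells are weighted: with every cell thinned to 1000 UMIs the log2 ratio was 0.38 in place of -0.17, so no order between the tissues is read from it.

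Tgfb1 was detected in all groups at similar levels and was higher in the colon. Its level ran from 165 CPM (Ccr6+) to 267 CPM (Ncr1+) over the 5 groups of the small intestine and from 260 CPM (Cd3e+) to 359 CPM (Gata3+) over those of the colon. None of the 10 ratios of marker-positive to marker-negative cells reached 2-fold, and they ran from 0.701 in small intestine Ccr6+ cells to 1.31 in colon Gata3+ cells. In the order of levels, the interval of each small intestine group overlapped that of its neighbours, while the highest and the lowest did not overlap; in the colon Gata3+ cells stood above the next group and the others overlapped.

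The tissue difference of Tgfb1 was largest in Ccr6+ cells, with 165 CPM in the small intestine, against 274 CPM in the colon, 1.66-fold higher in the colon (interval 1.41 to 1.95). Gata3+ cells had 234 CPM in the small intestine, against 359 CPM in the colon, 1.53-fold higher in the colon (interval 1.44 to 1.64). Ncr1+ cells had 267 and 308 CPM, Klrd1+ cells 249 and 294 CPM, with an interval that includes equal levels (and does not without 1 small intestine cell of 6 UMIs), and Cd3e+ cells 209 and 260 CPM (small intestine and colon). Over all cells the level was 229 CPM in the small intestine, against 326 CPM in the colon, a ratio of 0.702 (interval 0.674 to 0.731). Among cells it was even: the richest 10% of Gata3+ cells held 40.4% of its UMIs in the small intestine, against 36.9% in the colon, and the thinned variance over the mean was 1.08 and 1.19.

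Counts of the 4 genes past 2-fold are read against all genes. Over all cells, 0 of the 4 were past 2-fold toward the small intestine, against 8.92% of 11962 measured genes, and 1 (Bmp2) was past it toward the colon, against 5.42%. Toward the colon there were 2 of the 4 (Bmp2 and Vegfa) in Ncr1+ cells, against 4.13% of genes, and the same 2 in Klrd1+ cells (4.88%) and in Cd3e+ cells (4.27%). There was 1 (Areg) in Ccr6+ cells, against 3.40%, 1 (Bmp2) in cells with none of the markers, against 4.26%, and 0 in Gata3+ cells, against 4.40%. Toward the small intestine there were 0 of the 4 in each of these groups, where the share of all genes was 7.42% (Gata3+), 7.47% (Ccr6+), 9.26% (Ncr1+), 7.17% (Klrd1+), 5.12% (Cd3e+) and 9.10% (none).

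Between marker-positive and marker-negative cells of a library, Areg was the 1 gene past 2-fold upward in Gata3+ cells, against 2.74% of genes for the small intestine and 2.89% for the colon, and Vegfa the 1 gene past it downward in colon Gata3+ cells, against 6.40%. Upward in Ccr6+ cells there were 2 (Bmp2 and Vegfa) for the small intestine, against 5.82%, and 1 (Vegfa) for the colon, against 8.15%; downward there was 1 (Areg) in each, against 6.39% and 6.55%. Downward in Ncr1+ cells there were 2 (Bmp2 and Vegfa) for the small intestine, against 5.68%, and 1 (Areg) for the colon, against 6.39%. Downward in Klrd1+ cells there were 3 (Areg, Bmp2 and Vegfa) for the small intestine, against 8.55%, and 1 (Areg) for the colon, against 6.73%. Downward in Cd3e+ cells there were 3 (Areg, Bmp2 and Vegfa) for the small intestine, against 9.42%, and 2 (Areg and Bmp2) for the colon, against 5.71%. The median log2 ratio of all measured genes over all cells was 0.20 toward the small intestine, so each ratio of the 4 genes lies that much further to the colon side relative to the typical gene.

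**Figure D4:**
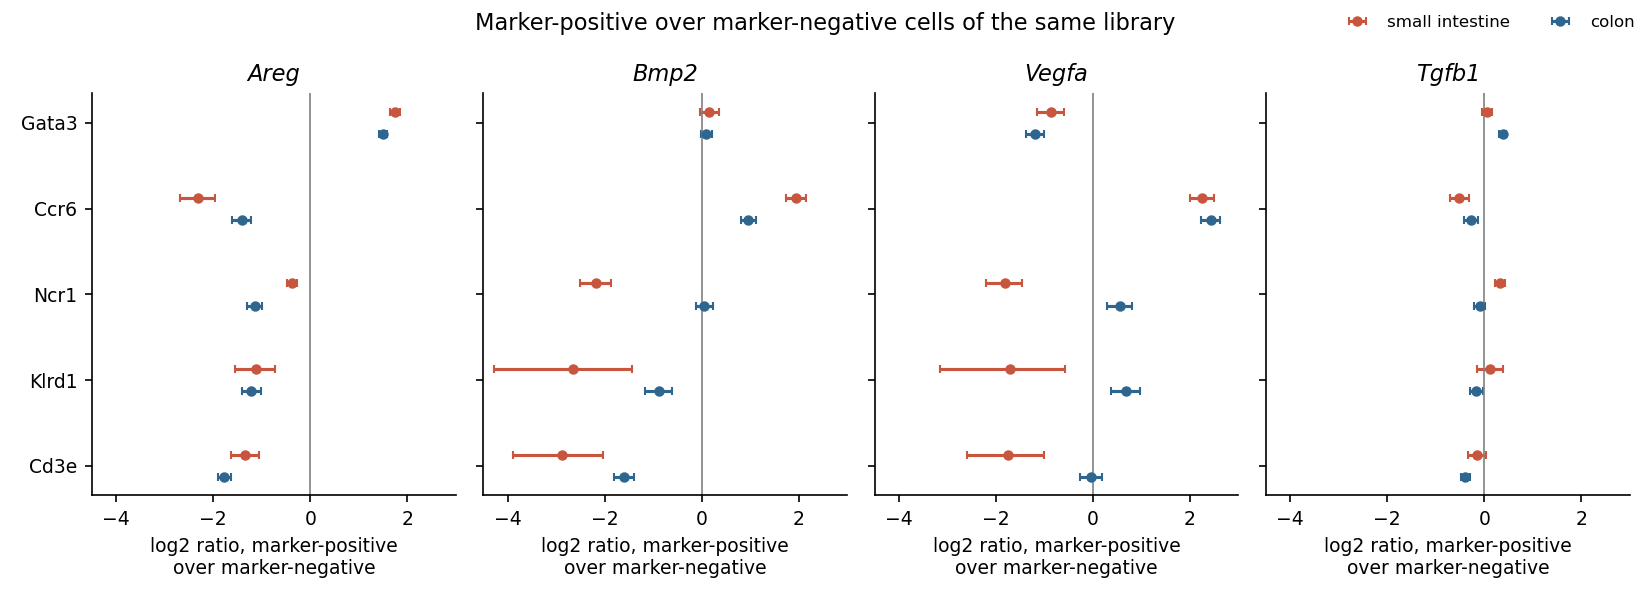
Log2 ratio of the level in marker-positive over marker-negative cells of the same library (x axis) for each gene and marker (y axis), small intestine above colon, with exact 95% intervals for counting error. Areg is above 0 for Gata3 alone, Vegfa and Bmp2 are highest for Ccr6, and Vegfa lies on opposite sides of 0 in the 2 tissues for Ncr1 and Klrd1, although the colon values turn under other counting (-0.28 and -0.088).

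Over whole libraries, Vegfa was seen more often in cells that had Bmp2. At 1000 UMIs per cell, 10.5% of small intestine cells with a UMI of Bmp2 also had one of Vegfa (interval 7.28 to 14.6), against 3.75% of cells without Bmp2 (21.2% and 6.21% without thinning). In the colon the shares were 5.64% (interval 4.08 to 7.57) and 3.15% (17.3% and 6.19% without thinning). Within Ccr6+ cells they were 18.5% and 13.9% in the small intestine and 16.7% and 16.8% in the colon, with overlapping intervals (33.8% and 20.8%, and 48.3% and 41.6%, without thinning). Areg and Tgfb1 were seen together in colon Gata3+ cells, where 34.9% of cells with Areg and 27.9% of cells without it had Tgfb1 (66.1% and 55.6% without thinning); in the small intestine the shares were 23.7% and 19.9%, with overlapping intervals.

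The genes whose levels followed each member were found over 12 non-overlapping sets of cells (cells with exactly 1 of the 5 markers, by marker, and cells with none, in each library), by Pearson's r of log2(CPM + 10) among 6186 genes with at least 200 UMIs in each library. The sets of a library share its processing, so r is a description. Areg was most like Ada (r = 0.93), an adenosine-degrading enzyme, then Hes1 (0.92), a Notch target, Tnfrsf18 (0.92), which encodes the receptor GITR, Rcsd1 (0.92) and Fbxl21 (0.88). Vegfa was most like H2-Aa (0.98), Zbtb46 (0.97), Yod1 (0.96), Cdc14a (0.96) and H2-Ab1 (0.95), of which H2-Aa and H2-Ab1 encode the chains of an MHC class II molecule. Bmp2 was most like Aig1 (0.96), Cd81 (0.92), Ptp4a1 (0.91) and the MHC class II gene H2-Eb1 (0.90). Tgfb1 was most like Cuedc1 (0.89), Eif5a (0.89), Capzb (0.85), Calm3 (0.79) and Il2 (0.78). Among the 4 genes themselves the highest r was 0.78, for Bmp2 and Vegfa, and Areg and Vegfa had -0.35.

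The other genes of each pathway were counted from lists over all cells, where a gene was measured if it had at least 20 UMIs in both libraries together. Of 21 EGF family genes 14 were measured; 1 was past 2-fold toward the small intestine and 2 toward the colon, with a median log2 ratio of 0.11. For each of these lists the shares over all measured genes were 8.92% past 2-fold toward the small intestine and 5.42% toward the colon, with a median of 0.20. The ligand Hbegf had 182 CPM in the small intestine, against 37.9 CPM in the colon, 4.80-fold higher in the small intestine (interval 4.44 to 5.19), which is the opposite direction to Areg. In small intestine Ccr6+ cells, where Areg was lowest, Hbegf stood at 220 CPM, against 88.2 CPM in colon Ccr6+ cells. The ligand Tgfa had 1 UMI in the small intestine, against 25 UMIs in the colon. Of the proteases that shed these ligands, Adam17 stood at 14.1 and 13.3 CPM, within counting error, and Adam10 at 30.6 and 25.7 CPM (small intestine and colon), 1.19-fold higher in the small intestine (interval 1.05 to 1.35). The receptor Egfr had 0 UMIs in the small intestine, against 9 UMIs in the colon.

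Of 36 BMP genes 19 were measured, 2 past 2-fold toward the small intestine and 6, Bmp2 among them, toward the colon (8.92% and 5.42% of all genes), with a median log2 ratio of 0.04, against 0.20 for all genes. The ligands divided by tissue. Bmp4 had 9.28 CPM in the small intestine, against 0.90 CPM in the colon, 10.4-fold higher in the small intestine (interval 6.46 to 17.5), and the activin subunit gene Inhba was 7.19-fold higher there (interval 4.01 to 13.8). Bmp7 had 9.68 CPM in the small intestine, against 36.4 CPM in the colon, 3.76-fold higher in the colon (interval 3.15 to 4.51). Bambi, a decoy receptor that damps BMP signals, stood at 60.2 CPM in the small intestine, against 128 CPM in the colon, while Id2, a BMP target that all ILCs need, stood at 1419 and 1381 CPM.

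Of 26 VEGF and hypoxia genes 21 were measured, 2 past 2-fold toward the small intestine and 3 toward the colon, with a median log2 ratio of -0.12. The oxygen-regulated factor Hif1a stood at 57.0 CPM in the small intestine, against 65.5 CPM in the colon, and its relative Epas1 at 115 and 58.9 CPM. Of the targets, the lactate dehydrogenase gene Ldha stood at 471 CPM in the small intestine, against 665 CPM in the colon. The VEGF receptor Kdr had 0 UMIs in the small intestine, against 10 UMIs in the colon, and Flt4, the receptor of VEGF-C, was 8.27-fold higher in the small intestine (interval 4.44 to 16.8) at 4.44 CPM against 0.54 CPM. The co-receptor Nrp1 stood at 52.9 and 43.9 CPM (small intestine and colon).

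Of 29 TGF-beta genes 21 were measured, 2 past 2-fold toward the small intestine and 4 toward the colon, with a median log2 ratio of -0.10. Furin, the protease that cuts the precursor, stood at 621 CPM in the small intestine, against 901 CPM in the colon, and the integrin subunit gene Itgav, whose dimers release the active factor, at 123 and 99.6 CPM. Nrros, which anchors latent TGF-beta1 on cells, stood at 26.2 CPM in the small intestine, against 40.3 CPM in the colon. Tgif1, a repressor of SMAD targets, was 2.36-fold higher in the small intestine (interval 2.28 to 2.45) at 525 CPM against 222 CPM. Itgae, a TGF-beta target that encodes CD103, was 4.76-fold higher in the small intestine (interval 2.95 to 7.97), where 66 of its 74 UMIs were in Cd3e+ cells, and the latency protein gene Ltbp3 6.30-fold (interval 3.17 to 14.3) and the co-receptor gene Tgfbr3 5.18-fold (interval 2.57 to 11.8) higher in the colon.

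Of 28 other growth factor genes 11 were measured, 0 past 2-fold toward the small intestine and 5 toward the colon (8.92% and 5.42% of all genes), with a median log2 ratio of -0.81, against 0.20 for all genes. The macrophage growth factor Csf1 was 7.87-fold higher in the colon (interval 5.57 to 11.5) at 2.32 CPM in the small intestine, against 18.3 CPM in the colon, Pdgfa was 4.39-fold (interval 2.66 to 7.66) and the trefoil peptide gene Tff3 11.5-fold higher (interval 3.71 to 57.5, from 3 and 51 UMIs). All 14 handling and stress genes were measured, with 1 (Jun, 2.41-fold) past 2-fold toward the small intestine, 0 toward the colon and a median log2 ratio of 0.57. Their summed level over the groups ran from 13631 to 24832 CPM in the small intestine and from 11074 to 15508 CPM in the colon, and whether it bears on the levels above was not tested. The sum covers genes that moved in opposite directions: in Ccr6+ cells Jun, Egr1, Nr4a1, Dusp1 and Zfp36 were past 2-fold toward the small intestine, while Hspa1a (105 CPM in the small intestine, against 530 CPM in the colon), Hspa1b and Dnajb1 were past it toward the colon.

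**Figure D5:**
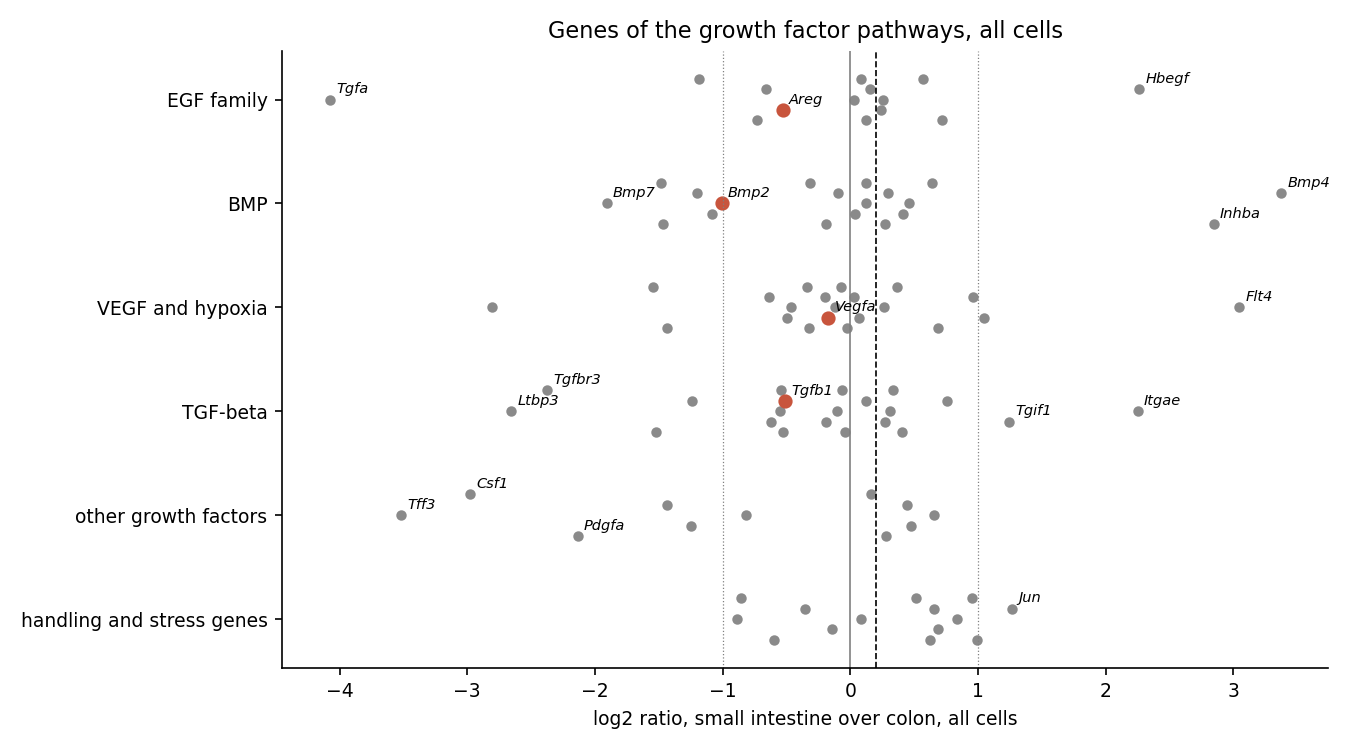
Log2 ratio of the small intestine over the colon in all cells (x axis) for each measured gene of the 6 lists (y axis), with the 4 growth factor genes as large red points and named genes labelled; the dashed line is the median of all measured genes (0.20) and the dotted lines are 2-fold. Hbegf and Bmp4 lie to the small intestine side, opposite to Areg and Bmp2 of the same families.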

How the data were processed

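Per the submitters' processing notes, reads were processed with Cell Ranger 3.0.2 on mm10; the rule by which the authors chose cells is not given in the sources used here. The deposited matrices and table hold raw UMI counts per gene and cell; 0 values differed between them. All cells of the table were used, and no doublets were removed (Scrublet in scanpy 1.11.5 marked 6 and 587 cells, small intestine and colon). The least deep cells had 1111 and 1156 UMIs. UMIs were summed over a group and divided by its total (CPM). Intervals are 95%: exact Poisson for levels, exact conditional binomial for ratios, Clopper-Pearson for shares; a count of 0 was set to a floor of 3 counts for ratios. Shares were taken after thinning to 1000 UMIs, which left out 0 cells. Free RNA, profiled in barcodes of 10 to 50 UMIs, was 5.36% and 8.25% of cell UMIs, scaled on Igkc, Igha and Jchain. Ratios and intervals were tested on simulated counts that held counting error alone, so the test could not show what spread between cells does to them. Groups, genes and lists were chosen with earlier results of these data known. Named genes were the 4 members, the 5 most like each, list genes past 2-fold with an interval that excludes 2-fold, and defining receptors and activators; Klrg1, Il5, Il13, Il22, Tbx21, Cd4, Id2, Ldha and the stress genes were named outside that rule, with values seen; some genes are not reported here.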

Additional observations from a re-analysis of the deposited data

Results flagged for a closer look

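Areg and Vegfa gave 4 results that pointed in opposite directions in cell groups or tissues; none of these differences was tested, since each tissue had 1 library. The small intestine to colon log2 ratio of Areg was 0.27 in Ncr1+ cells and -1.38 in Ccr6+ cells, a difference of 1.65, and it was -0.47 in Klrd1+ cells, 0.74 below Ncr1+ cells. With only cells of a single marker the Ncr1+ value was -0.033, and without 1 small intestine cell it was 0.10. The Ccr6+ value was -0.45 with at least 2 UMIs of Ccr6 and -0.07 with Ccr6 called anew after thinning. The Klrd1+ value was 0.88 with at least 2 UMIs of Klrd1. The Ncr1+ over Ncr1- log2 ratio of Vegfa was -1.82 in the small intestine, against 0.55 in the colon, a difference of -2.37, and the Klrd1+ over Klrd1- ratio was -1.71 and 0.68, a difference of -2.39. The small intestine values rest on 71 UMIs in Ncr1+ cells and 6 UMIs in Klrd1+ cells. The colon values are those that turned under other choices: against cells with none of the markers the Ncr1+ value was -0.28, and after thinning the Klrd1+ value was -0.088.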

How the results depend on the processing

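No paired analysis was possible because each tissue has 1 library, and for the same reason no library could be left out. Of 208 recomputed tissue ratios 161 stayed within their interval, 44 moved past it and 3 turned in sign from a value whose interval excluded equal levels; of 200 marker ratios these counts were 115, 82 and 3. A further 8 tissue ratios and 8 marker ratios turned in sign from values whose interval included equal levels, Areg and Vegfa in Gata3+ cells among them. The log2 values that turned from an interval without equal levels were Vegfa in all cells thinned (0.38), Areg in Ncr1+ cells of a single marker (-0.033), Areg in Klrd1+ cells with at least 2 UMIs of Klrd1 (0.88), Areg in small intestine Ncr1+ over marker-free cells (0.38), and Vegfa in colon Ncr1+ over marker-free cells (-0.28) and thinned Klrd1+ over Klrd1- cells (-0.088). With a median-ratio size factor the all-cell log2 ratios were -0.73 for Areg, -1.21 for Bmp2, -0.38 for Vegfa and -0.71 for Tgfb1, and those in Gata3+ cells -0.21 for Areg and -0.78 for Tgfb1. Thinned values were -0.79 for Areg, -0.86 for Bmp2 and -0.57 for Tgfb1 in all cells, -0.27 for Areg in Gata3+ cells and -1.01 for Bmp2 in Ccr6+ cells. Areg in all cells was -0.60 without the highest Scrublet scores, and in Gata3+ cells 0.091 with at least 2 UMIs of Gata3 and 0.062 with that marker alone. Leaving out 1 cell of most UMIs per library was chosen after seeing the data. For the thinned ratios, marker calls were repeated after thinning, so those groups hold fewer cells. The thinned shares, joint shares, means and variances kept the groups called at full depth, so they describe other sets of cells. The cause of these shifts was not tested. Subtraction of free RNA moved 0 tissue ratios beyond their interval and 7 marker ratios, and the cell quality filter kept all cells. Counting genes with at least 1 UMI gave 4 EGF genes higher in the colon, 4 BMP genes higher in the small intestine, 5 VEGF and 7 TGF-beta genes higher in the colon and 1 other growth factor higher in the small intestine; the size factor gave 1 VEGF gene higher in the small intestine and 2 stress genes higher in the colon. Without thinning, 45 of 48 shares and 17 of 24 joint differences moved. Counts under about 20 UMIs, as for Bmp2 and Vegfa in small intestine Klrd1+ and Cd3e+ cells, give wide intervals.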
